A study of Mus musculus with 9 samples.

Results

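Iron and heme handling was followed in mouse long-term hematopoietic stem cells (LT-HSCs), the rare marrow cells that renew the blood, through 10 genes: Tfrc, Steap3 and Slc11a2 for iron uptake, Fth1, Ftl1 and Ncoa4 for storage, Slc40a1 for export, Ireb2 and Aco1 for sensing, and Hmox1 for heme breakdown. They were taken by their symbols, with earlier results of these data known, and are 10 of the 56262 genes listed in each count table. All 10 passed the filter on low counts, among 16595 genes tested. The cells came from wild-type C57BL/6 mice and were sorted from the lineage-negative, Sca1-positive, c-Kit-positive fraction as CD150-positive, with a last gate that the labels write as C48-. RNA was sequenced in 3 groups of 3 libraries. The 5-FU+FMT group received the cytotoxic drug 5-FU (5-fluorouracil) at 250 mg/kg and then FMT, a term left unexplained in the labels, by vein at 5 mg/kg on days 1, 4 and 7. The 5-FU+Saline group received the same dose of 5-FU and then saline, named PBS in the series text, on days that are not given. In both, cells were taken on day 8. Control mice were untreated. The labels give neither the age nor the sex of the mice, nor whether a library came from 1 mouse or several, so p-values measure the spread between these libraries, which may be technical.

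Iron reaches most cells bound to transferrin. The transferrin receptor (Tfrc) carries it into endosomes, the reductase Steap3 turns ferric iron into ferrous iron there, and the transporter Slc11a2 (DMT1) moves it into the cytosol. Iron that is not used is stored in shells of ferritin heavy chain (Fth1, which oxidises iron) and light chain (Ftl1), which the autophagy receptor Ncoa4 delivers for breakdown, and ferroportin (Slc40a1) is the only known cellular iron exporter of mammals. The iron regulatory proteins, Aco1 (IRP1, a cytosolic aconitase when it holds an iron-sulfur cluster) and Ireb2 (IRP2), bind hairpins called iron-responsive elements (IREs) when iron is low. Binding ahead of the coding region blocks translation and binding behind the coding region protects the mRNA from decay. Hmox1, heme oxygenase 1, opens the heme ring and frees iron, carbon monoxide and biliverdin, and is known for its high level in macrophages that clear red cells.

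The binding hairpins themselves are shown because their place in the mRNA sets whether translation or mRNA stability is controlled, for the genes in which a match was found. They were read from 1 coding transcript per gene of GENCODE M21 on GRCm38, the mm10 assembly, by searching the untranslated ends in the direction of transcription for C, any 5 bases, CAGUGN and 5 bases that pair with the first 5. Capitals mark the 6 bases of the loop, and each sequence runs 5′ to 3′ over 29 bases with a C bulge ahead of the upper stem. A single match each lay in the 5′ UTR of Fth1 (chr19:9982732-9982760, plus strand), Ftl1 (chr7:45459779-45459807, minus strand) and Slc40a1 (chr1:45925465-45925493, minus strand):
Fth1 5′ UTR: uuccugcuucaaCAGUGCuugaacggaac
Ftl1 5′ UTR: gucuugcuucaaCAGUGUuugaacggaac
Slc40a1 5′ UTR: caacuucagcuaCAGUGUuagcuaaguuu
The 3′ UTR of Tfrc held 4 matches, all on the plus strand, at chr16:32631219-32631247, chr16:32631598-32631626, chr16:32631663-32631691 and chr16:32631710-32631738, listed here in that order:
Tfrc 3′ UTR, element a: aauuaucggaagCAGUGCcuuccauaauu
Tfrc 3′ UTR, element b: cauuaucgggagCAGUGUcuuccauaaug
Tfrc 3′ UTR, element c: cuauaucggagaCAGUGAucuccauaugu
Tfrc 3′ UTR, element d: aauuaucgggaaCAGUGUuucccauaauu
Over all genes, 21 of 20097 5′ UTRs (0.104%) and 111 of 20614 3′ UTRs (0.538%) held a match. The transcripts read for Slc11a2, Steap3, Ncoa4, Ireb2, Aco1 and Hmox1 held none, which says only that these letters were not in those transcripts. Other transcripts of these genes and hairpins with an unpaired base in the upper stem were not searched, so control by the regulatory proteins is not excluded for them.

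Library depth ranged from 11098031 to 19270976 counts over genes. Levels are given as CPM (counts scaled to a common library size, with TMM factors), and TMM sets libraries to the same level for most genes. The libraries of a group lay close together, with a common biological coefficient of variation of 3.74%, and in pairs of libraries the chi-square of their counts per degree of freedom was 2.15 to 2.58 within groups and 24.1 to 130 between groups. The 3 groups differed in more than treatment. Xist, the RNA expressed from the inactive X chromosome of female cells, averaged 682 ± 19.8 CPM in 5-FU+FMT, 1201 ± 20.2 in 5-FU+Saline and 0.870 ± 0.421 in Control, while the Y-linked gene Ddx3y averaged 100.04 ± 2.28, 38.9 ± 2.58 and 168 ± 4.23 CPM in those groups (SD, n = 3 each). Treatment and the sex make-up of the libraries therefore cannot be told apart. Single libraries had Xist at 659 to 695 CPM and Ddx3y at 98.0 to 102 in 5-FU+FMT. In 5-FU+Saline they had 1183 to 1223 and 37.1 to 41.9 CPM. Each treated library thus held RNA of female and of male cells, at similar levels within a group. The 3 libraries of a treated group may therefore not be 3 independent mice. Of the sort markers, Slamf1 (CD150) averaged 24.4 CPM in 5-FU+FMT, 34.5 in 5-FU+Saline and 8.35 in Control, Kit 537, 410 and 754 CPM, and Cd48, which the gate is read as excluding, 46.7, 53.7 and 30.7 CPM. Among genes of LT-HSCs, Hlf averaged 394 CPM in 5-FU+FMT, 243 in 5-FU+Saline and 565 in Control, and Mecom 147, 154 and 117 CPM. Flt3 and Cd34, which these cells should hold at low levels, averaged 279.5 and 413 CPM in 5-FU+FMT, 70.9 and 274 in 5-FU+Saline and 584 and 559 in Control. RNA of other cells was present in all groups. Erythroid markers (18 genes) summed to 878 to 922 CPM in 5-FU+FMT libraries, 470 to 483 in 5-FU+Saline and 1485 to 1526 in Control. Neutrophil markers (10 genes) summed to 867 to 987, 157 to 173 and 2271 to 2308 CPM in those groups, and monocyte markers (8 genes) to 76.6 to 85.7, 45.2 to 52.2 and 141 to 157 CPM. B cell markers (10 genes) summed to 430.2 to 473 CPM in 5-FU+FMT, 926 to 946 in 5-FU+Saline and 55.3 to 56.1 in Control. In bulk RNA, fewer cells of a type and less RNA per cell cannot be told apart.

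Set side by side per kilobase of exon, the 2 ferritin chains were the most abundant of the 10 mRNAs. Ftl1 stood at 222 CPM per kb in 5-FU+FMT, 204 in 5-FU+Saline and 271 in Control, and ranked 160, 177 and 142 of the 16595 genes in those groups. Fth1 stood at 154, 147 and 188 CPM per kb in the same order, and Tfrc at 26.1, 25.9 and 31.9. The order of the 2 ferritins depends on the length used: per kilobase of the main coding transcript (1494 bases for Fth1 and 968 for Ftl1, in place of 3469 and 1340 bases of all exons), Fth1 led with 359, 342 and 436 CPM per kb against 308, 283 and 375 for Ftl1. Ncoa4, Ireb2 and Aco1 followed at between 9.96 and 14.1 CPM per kb in every group, Steap3 and Slc11a2 at between 5.11 and 6.38. Slc40a1 was lowest at 1.077 in 5-FU+FMT, 1.36 in 5-FU+Saline and 1.66 in Control. Ncoa4 and Ireb2 changed places between 5-FU+Saline and Control, as did Slc11a2 and Steap3, and of the 10 genes Hmox1 shifted most in its rank. It stood at 3.99 CPM per kb (rank 9368) in 5-FU+FMT, 10.8 (rank 5370) in 5-FU+Saline and 2.19 (rank 11406) in Control. Together the 10 genes took 0.137 to 0.140% of counts in 5-FU+FMT libraries, 0.132 to 0.134% in 5-FU+Saline and 0.155 to 0.157% in Control.

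**Figure D1:**
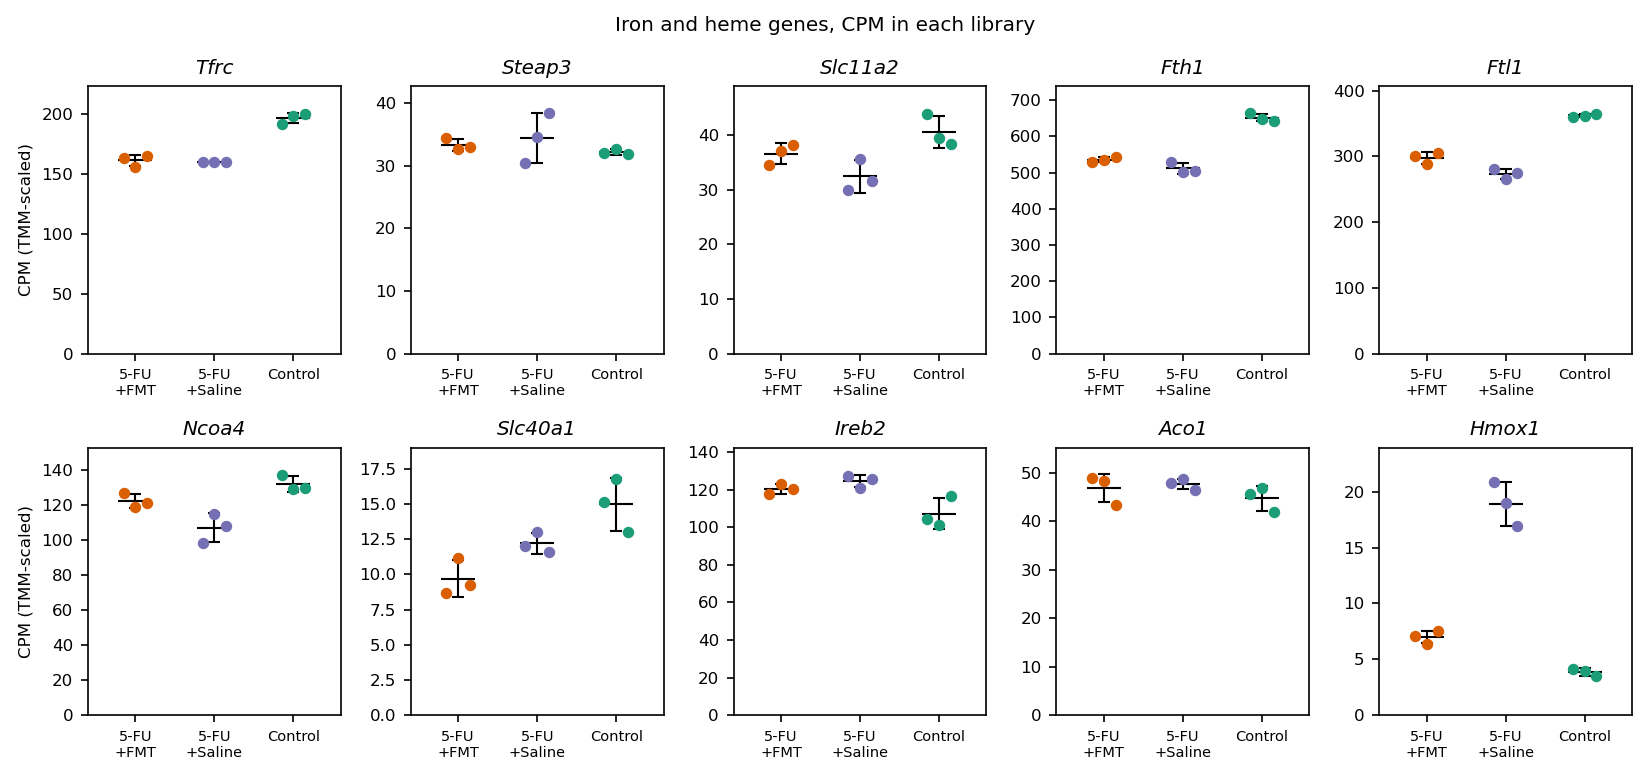
Each panel plots 1 gene: the vertical axis is its level in CPM (TMM-scaled) from 0, points are the 3 libraries of each group, and bars are the mean ± SD. Hmox1 sits at 16.9 to 20.9 CPM in 5-FU+Saline, above 6.39 to 7.51 in 5-FU+FMT and 3.47 to 4.10 in Control, while Tfrc, Fth1 and Ftl1 are highest in Control on this scale.

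On day 8 after 5-FU, the mRNAs of Tfrc and Slc11a2 (uptake), both ferritin chains and Ncoa4 (storage) and Slc40a1 (export) were modestly lower than in Control, Steap3 was not called, and Hmox1 was far higher. Between 5-FU+Saline and Control, 2 of the 10 genes rose (Hmox1 and Ireb2) and 6 fell (Tfrc, Slc11a2, Fth1, Ftl1, Ncoa4 and Slc40a1) by the edgeR quasi-likelihood test at a Benjamini-Hochberg adjusted p under 0.05. Among all genes tested, 65.5% were called in this comparison, 32.8% higher and 32.7% lower, so being called was common. The libraries of the groups did not overlap for 7 of the 10 genes, and for 67.8% of all genes. The median log2 fold change of the 10 genes was -0.29, against -0.02 for all genes. The median size of change over all genes, whatever its sign, was 0.42 on the log2 scale, and of the 10 genes Hmox1 alone exceeded it, with Ftl1 next at -0.41.

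Between 5-FU+FMT and 5-FU+Saline, 3 of the 10 rose (Fth1, Ftl1 and Ncoa4), 2 fell (Slc40a1 and Hmox1) and 5 were not called, where 36.9% of all genes were called, 17.7% higher and 19.2% lower. The groups did not overlap for 5 of the 10, and for 46.3% of all genes. The median of the 10 genes was -0.00, against 0.01 for all genes. Between 5-FU+FMT and Control, 2 rose (Hmox1 and Ireb2), 5 fell (Tfrc, Fth1, Ftl1, Ncoa4 and Slc40a1) and 3 were not called, where 46.6% of all genes were called, 25.0% higher and 21.6% lower. The groups did not overlap for 8 of the 10, and for 52.7% of all genes. The median of the 10 was then -0.13, against -0.01 for all genes. The 3 comparisons share groups, so their values are not independent of each other. Counts of called genes in every list and marker set below stand against these same shares of all genes.

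The direction of the small differences is relative to how a library is scaled. A class of noncoding RNAs was counted together: snRNAs, snoRNAs, miRNAs and other small RNAs, with ribosomal RNAs and mitochondrial rRNAs and tRNAs. It took 0.677 to 0.795% of counts in 5-FU+FMT, 0.215 to 0.248% in 5-FU+Saline and 1.600 to 1.71% in Control. Libraries were also scaled to length-normalised totals over all genes, as TPM does. There this class took 12.0 to 13.6%, 3.51 to 3.88% and 23.9 to 25.4% of the total in those groups. That scaling put the median of all genes at 0.40 between 5-FU+Saline and Control. It was -0.13 between 5-FU+FMT and 5-FU+Saline, and 0.28 between 5-FU+FMT and Control. On that scale Tfrc, Fth1, Ftl1, Slc11a2, Ncoa4 and Slc40a1 were all above 0 in 5-FU+Saline against Control, between 0.02 and 0.14. Relative to the median of all genes, their values were the same on both scales: -0.28 for Tfrc, -0.33 for Fth1, -0.39 for Ftl1, -0.30 for Slc11a2, -0.28 for Ncoa4 and -0.26 for Slc40a1. The shift is alike for every gene, so any small difference or list count moves with it, and rises and falls are stated on the TMM scale, where the median gene does not move.

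**Figure D2:**
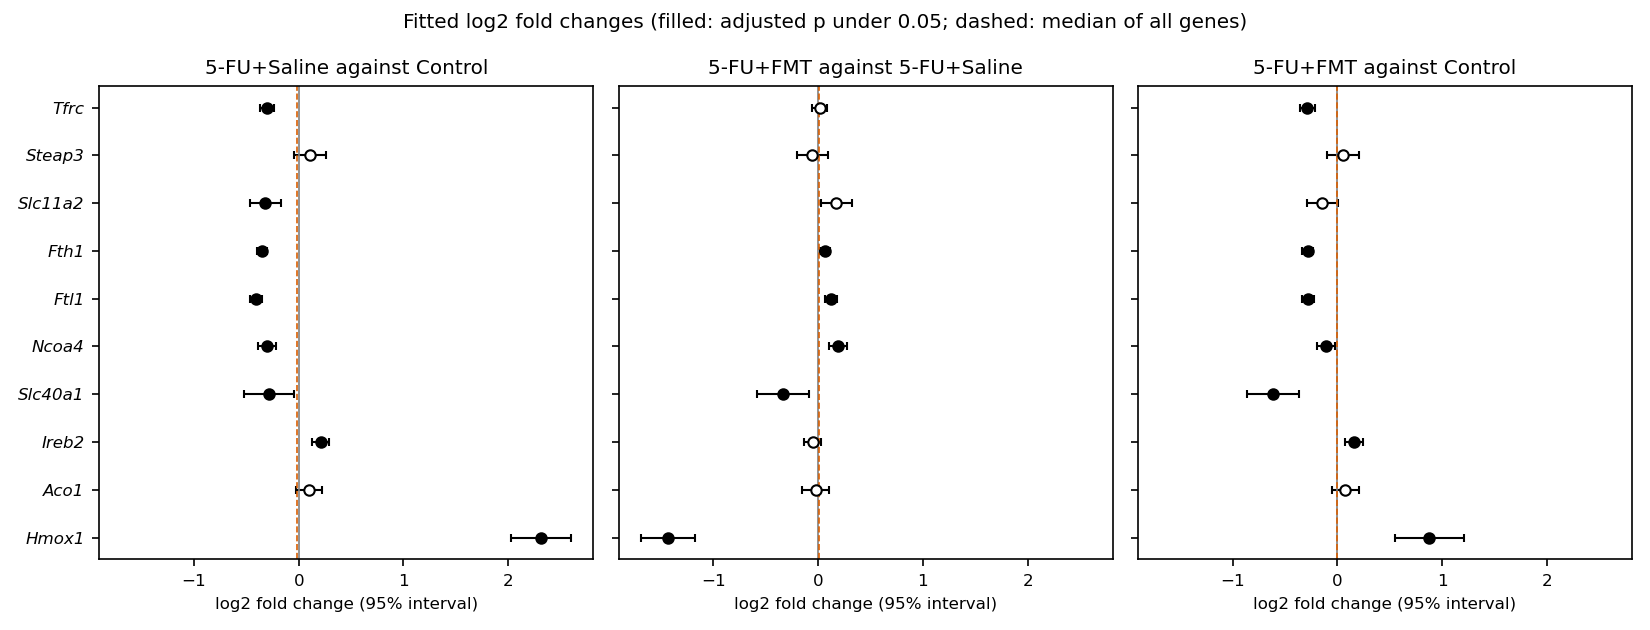
Rows are the 10 genes and the horizontal axis is the fitted log2 fold change on the TMM scale with its 95% interval, in a panel per comparison; filled points have an adjusted p under 0.05 and the dashed line is the median of all genes. Hmox1 stands apart at 2.31, -1.43 and 0.88, while the other 9 genes lie between -0.61 and 0.21; on length-normalised totals the small decreases against Control turn or come to near 0, apart from Slc40a1 in 5-FU+FMT.

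Of the uptake genes, the transferrin receptor was lower in both treated groups to the same extent. Tfrc (16:32608920-32632794) had 163, 156 and 165 CPM in the 3 libraries of 5-FU+FMT, 160.0, 160.0 and 159.9 CPM in 5-FU+Saline, and 192, 199 and 200.1 CPM in Control. No treated library reached the lowest Control library, and the treated groups overlapped. It fell by 0.30 on the log2 scale in 5-FU+Saline against Control (SE 0.035, adjusted p = 5.14e-12) and by 0.29 in 5-FU+FMT against Control (adjusted p = 1.10e-10). Between 5-FU+FMT and 5-FU+Saline the change was 0.02, with a 95% interval of -0.05 to 0.09 and an adjusted p of 0.772. Proliferation genes moved the other way: all 12 of a list of cycle genes rose in 5-FU+Saline against Control, and their sum was 3054 to 3140 CPM in 5-FU+FMT, 3929 to 4019 in 5-FU+Saline and 1793 to 1825 in Control. The part of this or of the erythroid RNA in the Tfrc difference was not tested.

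The endosomal steps after the receptor did not move as one. Slc11a2 (15:100387898-100425072) had 34.5, 37.1 and 38.3 CPM in 5-FU+FMT, 29.9, 35.7 and 31.7 in 5-FU+Saline, and 43.9, 39.4 and 38.4 in Control. All treated libraries lay below all Control libraries, and those of 5-FU+FMT and 5-FU+Saline overlapped. It fell by 0.32 in 5-FU+Saline against Control (SE 0.075, adjusted p = 0.00013), and missed the threshold in 5-FU+FMT against 5-FU+Saline (0.17, adjusted p = 0.0593) and against Control (-0.14, adjusted p = 0.106). Slc11a2 overlaps Gm5475 on the opposite strand, at 0 to 0.459 CPM. Steap3 (1:120190757-120272705) averaged 33.3 ± 0.932 CPM in 5-FU+FMT, 34.4 ± 3.99 in 5-FU+Saline and 32.2 ± 0.441 in Control. No difference in Steap3 passed the test, and in 5-FU+Saline against Control the interval of -0.05 to 0.26 leaves room for a change of either sign.

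Both ferritin chains were lower after 5-FU and partly higher again with FMT. Fth1 (19:9980598-9985098) had 530, 535 and 542 CPM in 5-FU+FMT, 529, 502 and 503 in 5-FU+Saline, and 663, 649 and 643 in Control. Ftl1 (7:45457944-45459884) had 301, 288 and 305 CPM in 5-FU+FMT, 281, 265 and 274 in 5-FU+Saline, and 361, 362 and 365 in Control. For each chain the 3 groups did not overlap, with Control highest and 5-FU+Saline lowest, although the nearest Fth1 libraries of the treated groups were 530 and 529 CPM. Against Control, Fth1 in 5-FU+Saline was 1.27-fold lower (log2 -0.35, SE 0.026, adjusted p = 3.10e-20) and Ftl1 1.33-fold lower (log2 -0.41, SE 0.030, adjusted p = 1.06e-20). In 5-FU+FMT both were 1.22-fold lower than in Control (log2 -0.28 each, adjusted p = 2.17e-15 for Fth1 and 3.70e-13 for Ftl1). Between 5-FU+FMT and 5-FU+Saline the increases were small, 0.12 for Ftl1 (SE 0.030, adjusted p = 0.00057) and 0.07 for Fth1 (SE 0.026, adjusted p = 0.0374). That Fth1 call was lost in 7 of 17 other settings, among them leaving out 5-FU+Saline replicate 2 (adjusted p = 0.183) or replicate 3 (adjusted p = 0.182) and 5-FU+FMT replicate 2 (adjusted p = 0.0721) or replicate 3 (adjusted p = 0.114). Both increases changed sign on length-normalised totals (-0.02 and -0.07).

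Ferritin genes have processed copies in the mouse genome that could draw reads away. The 11 annotated heavy chain copies held 39 counts in all in 5-FU+FMT, 27 in 5-FU+Saline and 34 in Control, 0.105 to 0.167% of heavy chain counts. The 3 light chain copies held 200, 242 and 263 counts, 1.52 to 1.73% of light chain counts. Levels of each chain are therefore uncertain by reads placed in copies or dropped as not unique. Ftl1 overlaps Gm10252 on the opposite strand, listed at 0.144 to 1.29 CPM, and the counts give no strand.

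Ncoa4 (14:32159865-32179855), which takes ferritin to the lysosome so that its iron is freed, followed the ferritins. Its libraries had 127, 119 and 121 CPM in 5-FU+FMT, 98.4, 115 and 108 in 5-FU+Saline, and 137, 129 and 130 in Control. The groups did not overlap, with 5-FU+FMT in between. Ncoa4 fell by 0.30 in 5-FU+Saline against Control (SE 0.044, adjusted p = 7.16e-09), rose by 0.19 in 5-FU+FMT against 5-FU+Saline (SE 0.044, adjusted p = 0.000232), and fell by 0.11 in 5-FU+FMT against Control (adjusted p = 0.0361). The last of these was lost in 5 of 17 other settings, including without Control replicate 1 (adjusted p = 0.187), 5-FU+FMT replicate 2 (adjusted p = 0.153) or replicate 3 (adjusted p = 0.117). Erythroid genes had the same order of groups: 17 of 18 fell in 5-FU+Saline against Control and 16 of 18 rose in 5-FU+FMT against 5-FU+Saline, and none was at 0 in any group. The neutrophil and monocyte sums had this order too, also with none at 0, although 4 of 9 tested neutrophil markers rose and 4 fell, and 2 of 7 monocyte markers rose and 4 fell, in 5-FU+Saline against Control. The sum of the 12 genes used to check the LT-HSC label, Cd48, Flt3 and Cd34 among them, had the order of Ncoa4 too. It was 2239 to 2308 CPM in 5-FU+FMT, 1593 to 1608 in 5-FU+Saline and 3192 to 3229 in Control. Of these 12, 4 rose and 7 fell in 5-FU+Saline against Control, with Cd48 among the former and Flt3 and Cd34 among the latter. The sum is therefore not a level of LT-HSC genes alone. All 12 immediate early genes, Fos and Jun among them, fell in 5-FU+Saline against Control and rose in 5-FU+FMT against 5-FU+Saline. The part of any of these cells or gene lists in the ferritin and Ncoa4 differences was not tested.

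Ratios within a library need no scaling between libraries. The 3 that were computed, summed ferritin over Tfrc, Fth1 to Ftl1 and Aco1 to Ireb2, shifted little. Ratios of other pairs of the iron genes, those with Hmox1 included, were not computed. Summed ferritin over Tfrc, both in counts per kilobase, was 14.3, 14.6 and 14.4 in 5-FU+FMT, 14.01, 13.3 and 13.5 in 5-FU+Saline, and 14.8, 14.2 and 14.1 in Control. The 5-FU+Saline libraries lay below all others. The mean log2 difference was -0.08 in 5-FU+Saline against Control (SE 0.031) and 0.08 in 5-FU+FMT against 5-FU+Saline (SE 0.025), each with a 2-sided exact permutation p of 0.1, the smallest that 3 against 3 libraries can give. Between 5-FU+FMT and Control it was 0.00 (exact permutation p = 0.9). The Fth1 to Ftl1 ratio averaged 0.695 ± 0.0203 in 5-FU+FMT, 0.723 ± 0.0117 in 5-FU+Saline and 0.694 ± 0.0156 in Control (SD, n = 3 each, exact permutation p = 0.2 to 0.9 over the 3 comparisons). Neither chain thus moved far from the other. With 9 ratio tests computed, no p adjusted over them could pass the threshold.

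**Figure D3:**
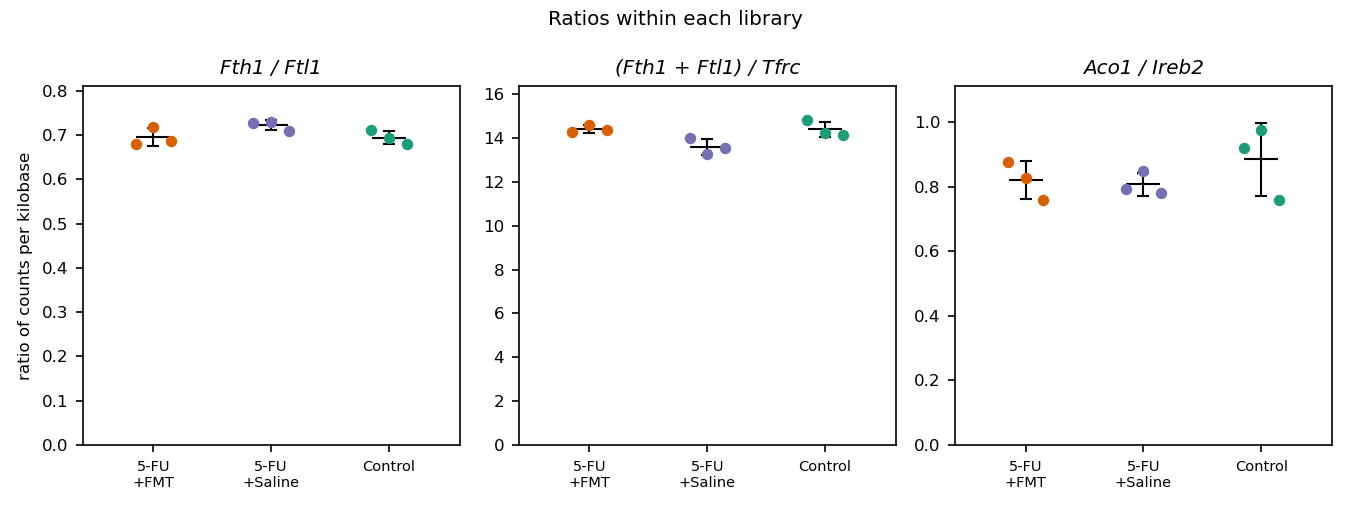
The vertical axes give ratios of counts per kilobase of exon within each library, from 0, with points for the 3 libraries of each group and bars for mean ± SD. Summed ferritin over Tfrc is 13.3 to 14.01 in 5-FU+Saline and 14.1 to 14.8 in the other groups, and the Fth1 to Ftl1 and Aco1 to Ireb2 ratios overlap between groups.

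The iron exporter was lowest with FMT. Slc40a1 (1:45908068-45926523) had 8.68, 11.2 and 9.24 CPM in 5-FU+FMT, 12.0, 13.04 and 11.6 in 5-FU+Saline, and 15.1, 16.8 and 13.01 in Control. The 5-FU+FMT libraries lay below all others, and one 5-FU+Saline library lay just above the lowest of Control. It was 1.53-fold lower in 5-FU+FMT than in Control (log2 -0.61, SE 0.13, adjusted p = 3.34e-05), a call that held in all 17 planned settings. Its other calls were weaker. It fell by 0.33 in 5-FU+FMT against 5-FU+Saline (SE 0.13, adjusted p = 0.0319) and by 0.28 in 5-FU+Saline against Control (SE 0.12, adjusted p = 0.0362). The first of these calls held in 12 of the 17 planned settings and the second in 10, and some of the losses follow. The call between the treated groups ended on leaving out 5-FU+Saline replicate 1 (adjusted p = 0.0550) or replicate 2 (adjusted p = 0.118) or 5-FU+FMT replicate 1 (adjusted p = 0.166) or replicate 3 (adjusted p = 0.101). The call against Control ended on leaving out Control replicate 1 (adjusted p = 0.0808) or replicate 2 (adjusted p = 0.188) or 5-FU+Saline replicate 1 (adjusted p = 0.0833) or replicate 3 (adjusted p = 0.130). Unlike the ferritins and Ncoa4, Slc40a1 did not rise in 5-FU+FMT against 5-FU+Saline.

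The mRNAs of the iron regulatory proteins were slightly higher or unresolved. Ireb2 (9:54863789-54912530) had 118, 123.2 and 121 CPM in 5-FU+FMT, 128, 121 and 126 in 5-FU+Saline, and 104, 101 and 117 in Control. Every treated library exceeded every Control library, and the treated groups overlapped. Ireb2 rose by 0.21 in 5-FU+Saline against Control (SE 0.044, adjusted p = 2.19e-05) and by 0.16 in 5-FU+FMT against Control (SE 0.044, adjusted p = 0.00219), with 0.37 as the adjusted p between the treated groups. Aco1 (4:40143081-40198338) averaged 46.9 ± 2.97 CPM in 5-FU+FMT, 47.7 ± 1.12 in 5-FU+Saline and 44.8 ± 2.54 in Control (SD, n = 3 each). None of its 3 differences was called, and its log2 change in 5-FU+Saline against Control lay between -0.03 and 0.23. The Aco1 to Ireb2 ratio averaged 0.821 ± 0.0580, 0.806 ± 0.0367 and 0.885 ± 0.113 in those groups (n = 3 each, exact permutation p = 0.4 to 0.8). These are mRNA levels, and the activity of both proteins is set after translation.

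Heme oxygenase 1 gave the largest change of the 10 genes in each comparison. Hmox1 (8:75093621-75100589) had 7.07, 6.39 and 7.51 CPM in 5-FU+FMT (110, 91 and 104 counts), 20.9, 18.96 and 16.9 CPM in 5-FU+Saline (316, 298 and 328 counts), and 4.10, 3.94 and 3.47 CPM in Control (55, 43 and 65 counts). The 3 groups did not overlap, and every 5-FU+FMT library lay between those of the other groups. It was 4.96-fold higher in 5-FU+Saline than in Control (log2 2.31, SE 0.15, adjusted p = 4.46e-24), where 6.51% of all genes were called higher by at least 2-fold. It was 2.70-fold lower in 5-FU+FMT than in 5-FU+Saline (log2 -1.43, SE 0.13, adjusted p = 2.34e-15), where 1.61% of all genes were called lower by at least 2-fold. Against Control it was still 1.84-fold higher in 5-FU+FMT (log2 0.88, SE 0.17, adjusted p = 6.46e-06). All 3 calls held in every one of the 17 planned and 3 added settings, length-normalised totals included.

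Markers of macrophages, cells that express Hmox1 strongly, moved with it. Of 15 such markers, 14 were tested, and 11 rose and 2 fell in 5-FU+Saline against Control, 2 rose and 10 fell in 5-FU+FMT against 5-FU+Saline, and 7 rose and 2 fell in 5-FU+FMT against Control. Their summed level was 94.5 to 97.3 CPM in 5-FU+FMT, 143.6 to 144.9 in 5-FU+Saline and 91.0 to 91.9 in Control, with Timd4 at 0 in Control. Single markers did not all have this order. Vcam1, C1qa and Mrc1 averaged 7.22, 2.04 and 3.74 CPM in 5-FU+FMT, 22.6, 6.89 and 11.9 in 5-FU+Saline, and 4.09, 0.377 and 0.684 in Control. Csf1r and Cd68 ran the other way, with 7.80 and 23.8 CPM in 5-FU+FMT, 4.40 and 20.4 in 5-FU+Saline, and 15.3 and 28.3 in Control. A list of 10 stromal genes also moved with Hmox1, all rising in 5-FU+Saline against Control: they summed to 57.4 to 63.2 CPM in 5-FU+FMT, 260 to 266 in 5-FU+Saline and 4.75 to 7.98 in Control, with Col3a1 at 0 in Control. B cell markers had the same order of groups, with all 10 rising in 5-FU+Saline against Control and all 10 falling in 5-FU+FMT against 5-FU+Saline, and none at 0. Of 8 endothelial markers, 6 rose and 1 fell in 5-FU+Saline against Control, and none was at 0. They summed to 189 to 196 CPM in 5-FU+FMT, 217 to 233 in 5-FU+Saline and 164 to 168 in Control. Pecam1, the marker that fell, was the highest of the 8 in every group, at 87.7, 75.9 and 99.6 CPM in that order. The part of any of these cell types in the Hmox1 difference was not tested.

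**Figure D4:**
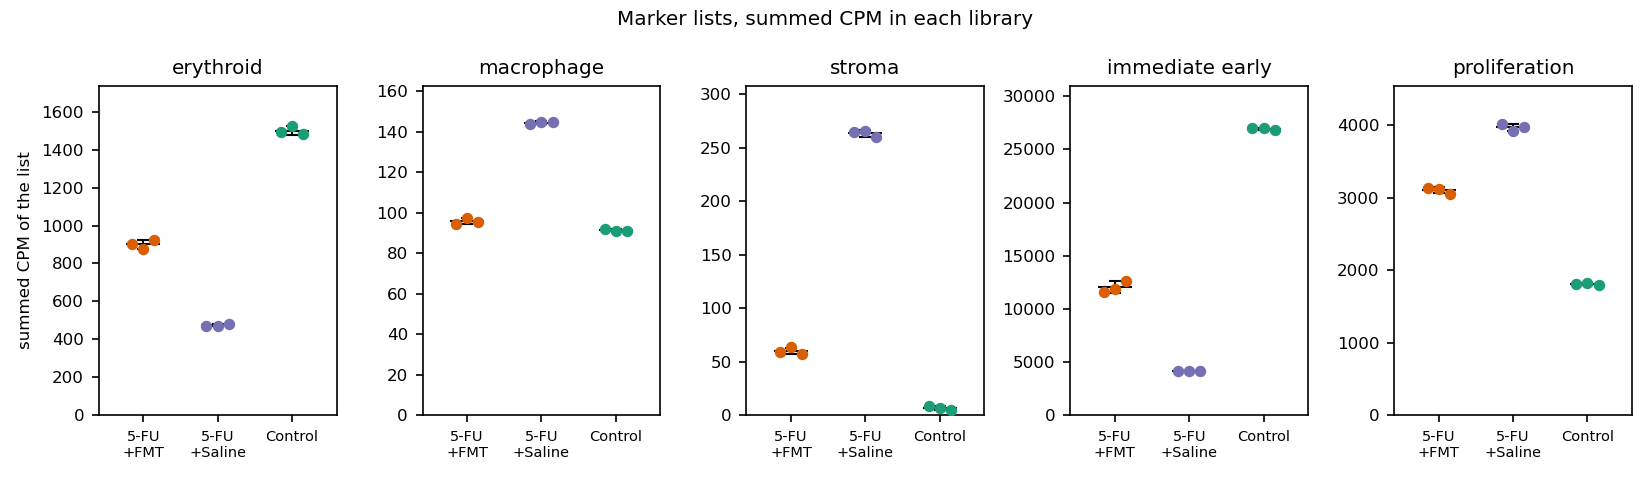
Each panel gives the summed CPM of a marker list, from 0, in the 3 libraries of each group, with mean ± SD. Macrophage, stromal and proliferation sums are highest in 5-FU+Saline, and erythroid and immediate early sums are highest in Control and lowest in 5-FU+Saline.

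The rest of the heme route did not rise with Hmox1 as a block. Of 14 tested genes for heme transport and breakdown outside the 10, 6 rose and 6 fell in 5-FU+Saline against Control (median log2 0.16). Of all genes, 32.8% were called higher and 32.7% lower there. Hmox2, the constitutive heme oxygenase, rose by 0.57 to 71.8 ± 1.32 CPM in 5-FU+Saline, against 48.8 ± 3.21 in Control (adjusted p = 3.29e-14). The 2 biliverdin reductases, which finish heme breakdown, parted. Blvra was 24.9 ± 3.98 CPM in 5-FU+Saline and 14.7 ± 0.795 in Control (log2 0.75, adjusted p = 7.18e-10). Blvrb, abundant in red cell precursors, was 26.1 ± 1.92 CPM in 5-FU+FMT, 12.0 ± 0.838 in 5-FU+Saline and 48.3 ± 2.76 in Control (SD, n = 3 each). It was 4.05-fold lower in 5-FU+Saline than in Control (log2 -2.02, adjusted p = 1.11e-33) and 2.18-fold higher in 5-FU+FMT than in 5-FU+Saline (log2 1.12, adjusted p = 2.14e-17). The erythroid, neutrophil, monocyte and immediate early sums had the same order of groups as Blvrb. So had the sum of the LT-HSC check list, which holds Flt3 and Cd34. The part of any of these was not tested. Lrp1, a receptor that takes up heme bound to hemopexin, was 27.4 ± 2.53 CPM in 5-FU+FMT, 19.6 ± 0.819 in 5-FU+Saline and 73.7 ± 1.69 in Control (5-FU+Saline against Control log2 -1.91, adjusted p = 2.50e-37). In 5-FU+FMT against 5-FU+Saline, 5 genes of this list rose and 4 fell, and against Control 4 rose and 5 fell.

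Hmox1 transcription is repressed by Bach1 and driven by Nfe2l2 (NRF2), and both belong to that list and were named after their values were seen. Bach1 fell by 0.40 in 5-FU+Saline against Control, with 80.4 ± 2.44 CPM in 5-FU+FMT, 71.0 ± 2.32 in 5-FU+Saline and 93.5 ± 0.488 in Control (adjusted p = 3.77e-11). Nfe2l2 fell by 0.36 in the same comparison, with 70.1 ± 1.33, 61.9 ± 2.73 and 79.9 ± 4.71 CPM in those groups (adjusted p = 1.34e-08). Of 12 other known targets of these factors, 3 rose and 3 fell in 5-FU+Saline against Control, 1 rose and 3 fell in 5-FU+FMT against 5-FU+Saline, and 4 rose and 4 fell in 5-FU+FMT against Control. The antioxidant enzymes Prdx1 and Txn1 had the Hmox1 order: Prdx1 was 199 ± 3.36 CPM in 5-FU+FMT, 255 ± 9.06 in 5-FU+Saline and 126 ± 5.94 in Control (5-FU+Saline against Control log2 1.01, adjusted p = 3.54e-39). Txn1 was 201 ± 7.12, 252 ± 8.22 and 128 ± 3.46 CPM in those groups (log2 0.98, adjusted p = 1.89e-38). Osgin1 had the reverse order, with 18.7 ± 2.21 CPM in 5-FU+FMT, 10.2 ± 1.085 in 5-FU+Saline and 38.2 ± 4.92 in Control (log2 -1.90, adjusted p = 4.88e-28). The list thus held genes of both directions, and its median in 5-FU+Saline against Control was -0.02, as for all genes. In that comparison 32.8% of all genes were called higher and 32.7% lower.

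Among 6 other mRNAs with a known IRE, 5 rose and 1 fell in 5-FU+Saline against Control (median log2 0.39). The shares of all genes called there were 32.8% higher and 32.7% lower. Epas1 (HIF-2 alpha), with a 5′ element, was 6.03 ± 1.085 CPM in 5-FU+FMT, 12.4 ± 1.45 in 5-FU+Saline and 1.67 ± 0.427 in Control. It was 7.47-fold higher in 5-FU+Saline than in Control (adjusted p = 1.40e-22) and 2.06-fold lower in 5-FU+FMT than in 5-FU+Saline (adjusted p = 6.20e-08); Epas1 is a gene of endothelium and stroma as well, and stromal markers moved with it, a part that was not tested. The gene that fell was Alas2, the erythroid enzyme that starts heme synthesis, named after its values were seen: it was 1.78 ± 0.326 CPM in 5-FU+FMT, 0.752 ± 0.278 in 5-FU+Saline and 2.95 ± 1.06 in Control (log2 -1.960, adjusted p = 2.85e-06). In 5-FU+FMT against 5-FU+Saline 1 rose and 3 fell, and against Control 4 rose and 2 were not called.

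Other genes of iron entry were split. Of 13 tested, 6 rose and 6 fell in 5-FU+Saline against Control (median log2 0.14), where 32.8% of all genes rose and 32.7% fell. In 5-FU+FMT against 5-FU+Saline 5 rose and 4 fell, and in 5-FU+FMT against Control 4 rose and 4 fell. Trf, transferrin itself, was 42.7 ± 2.93 CPM in 5-FU+FMT, 35.0 ± 1.79 in 5-FU+Saline and 66.0 ± 1.64 in Control, and was 1.88-fold lower in 5-FU+Saline than in Control (log2 -0.91, adjusted p = 1.39e-21). Slc22a17, a receptor for lipocalin 2, was 2.44-fold lower in the same comparison (log2 -1.29, adjusted p = 7.96e-25). The retromer-linked genes that return the transferrin receptor to the surface had the opposite sign to Tfrc: Snx3 rose by 0.60 (adjusted p = 8.28e-20) and Vps35 by 0.40 (adjusted p = 5.81e-14) in 5-FU+Saline against Control. In 5-FU+FMT against 5-FU+Saline, Snx3 fell by 0.24 (adjusted p = 5.25e-06) and Vps35 by 0.12 (adjusted p = 0.0128). Dmtn, a red cell cytoskeleton gene placed in this list, was 2.79 ± 0.331 CPM in 5-FU+FMT, 0.273 ± 0.127 in 5-FU+Saline and 6.01 ± 0.290 in Control, an order shared with the erythroid genes.

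Iron chaperones rose where ferritin mRNA fell. Pcbp1, which delivers iron to ferritin, was 351 ± 5.60 CPM in 5-FU+FMT, 419 ± 10.6 in 5-FU+Saline and 278 ± 6.47 in Control. It rose by 0.59 in 5-FU+Saline against Control (adjusted p = 4.53e-30), fell by 0.25 in 5-FU+FMT against 5-FU+Saline (adjusted p = 7.43e-12), and rose by 0.33 in 5-FU+FMT against Control (adjusted p = 2.85e-16). Pcbp2 rose by 0.32 in 5-FU+Saline against Control (adjusted p = 5.10e-15). Of the 9 tested genes for iron sensing, chaperones and export, 6 rose and 1 fell (Herc2, by 0.15, adjusted p = 0.000138) in 5-FU+Saline against Control. There, 32.8% of all genes were called higher and 32.7% lower. Bmp6 and Heph, among those 6, averaged at most 3.34 and 1.13 CPM in any group. In 5-FU+FMT against 5-FU+Saline 5 fell and 4 were not called, and in 5-FU+FMT against Control 5 rose and 1 fell. The largest decrease in 5-FU+FMT against 5-FU+Saline among genes of at least 5 CPM was that of Cp, ceruloplasmin, an oxidase that works with ferroportin. Cp was 2.03 ± 0.248 CPM in 5-FU+FMT, 5.14 ± 0.740 in 5-FU+Saline and 1.07 ± 0.284 in Control (5-FU+FMT against 5-FU+Saline log2 -1.34, adjusted p = 1.54e-05). The stromal, macrophage, B cell, endothelial and proliferation sums had the same order of groups as Pcbp1 and Cp, and their part was not tested.

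Genes for mitochondrial iron and iron-sulfur clusters moved in both directions, and were called about as often as all genes. Of 25 tested, 12 rose and 4 fell in 5-FU+Saline against Control (median log2 0.16), 3 rose and 7 fell in 5-FU+FMT against 5-FU+Saline (median -0.09), and 11 rose and 3 fell in 5-FU+FMT against Control (median 0.10). The cytosolic glutaredoxin Glrx3 rose by 0.45 in 5-FU+Saline against Control (adjusted p = 9.91e-16). The cluster assembly factor Isca1 fell by 0.70 to 136 ± 1.54 CPM in 5-FU+Saline, against 221 ± 2.84 in Control (adjusted p = 1.52e-29), and was 162 ± 5.15 CPM in 5-FU+FMT. Abcb10, a transporter of the inner membrane needed for heme synthesis in red cell precursors, fell by 0.92 (adjusted p = 1.47e-19). The mitochondrial iron importer Slc25a37 (mitoferrin 1) fell by 0.42 in 5-FU+Saline against Control (adjusted p = 1.02e-15). In 5-FU+FMT against 5-FU+Saline, Slc25a37 rose by 0.18 (adjusted p = 8.86e-05), and Iscu, the scaffold on which clusters form, fell by 0.23 (adjusted p = 0.00132). Isca1, Abcb10 and Slc25a37 had the order of groups of the erythroid, neutrophil, monocyte and immediate early sums. It was also the order of the LT-HSC check list, which holds Flt3 and Cd34. The part of any of these was not tested.

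**Figure D5:**
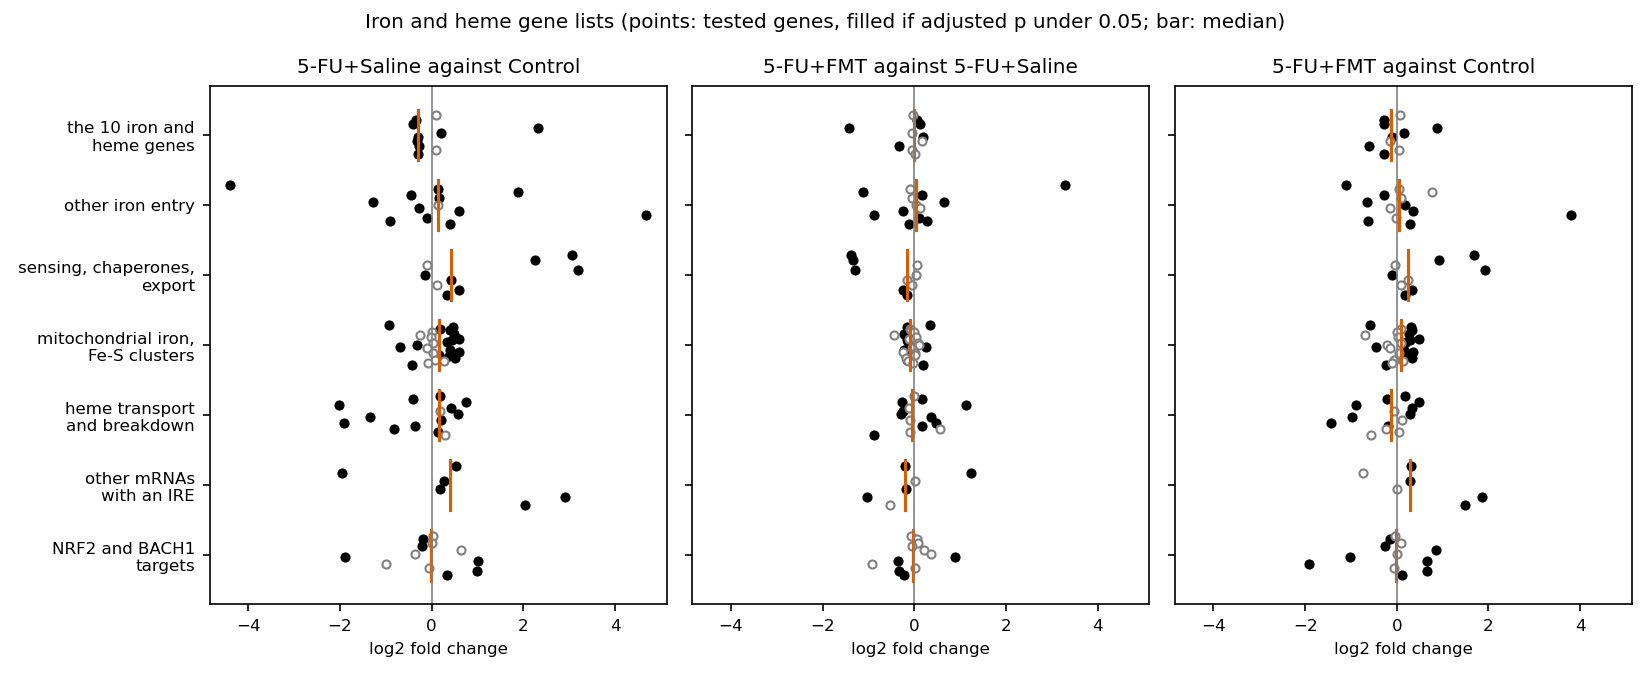
Points are the tested genes of each list, filled where the adjusted p is under 0.05, along a horizontal axis of log2 fold change on the TMM scale, with a bar at the list's median. The 10 iron and heme genes have a median of -0.29 in 5-FU+Saline against Control, while the medians of the other lists run between -0.02 and 0.42.

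Profiles most like 3 of the genes over the 9 libraries were sought by Euclidean distance between log2 CPM values centred on each gene's mean, among 10664 genes of at least 5 CPM. Nearest to Tfrc were Usp36 (distance 0.0664), Pld3 (0.101) and Dennd4a (0.106), and nearest to Fth1 were Syvn1 (0.0577), Zfp395 (0.0657) and Ubb (0.0831). Nearest to Hmox1 were Vcam1 at 0.494, Car3 at 0.768 and Gpx3 at 0.785. This distance grows with the size of a change and with the noise of low counts. The values for Hmox1 therefore cannot be set against those for Tfrc and Fth1. Genes with a lower mean, C1qa among them, were not searched. Vcam1, an adhesion molecule of stroma, endothelium and marrow macrophages, averaged 7.22 ± 0.494 CPM in 5-FU+FMT, 22.6 ± 2.64 in 5-FU+Saline and 4.09 ± 0.680 in Control. Car3 and Gpx3 likewise stood highest in 5-FU+Saline, at 11.4 and 16.2 CPM, against 3.78 and 4.57 in 5-FU+FMT and 2.85 and 3.29 in Control.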

How the data were processed

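The deposited values are raw read counts per gene in each library. The authors' steps, per the submitters' processing notes, used Trim Galore 0.6.5, HISAT2 2.2.1 (genome build mm10), SAMtools and featureCounts 2.0.1. Per the file headers, counting took read pairs over exons of GENCODE M25, with no strand option. From those counts, edgeR 4.0.16 in R 4.3.3 (limma 3.58.1) was run on all 9 libraries with filterByExpr and TMM, and a quasi-likelihood F test compared the 3 groups in 1 model. Benjamini-Hochberg adjustment covered 16595 genes, and calls needed an adjusted p under 0.05. Adjusted p-values are from this test, and a standard error is the log2 fold change over the square root of F. Ratios were tested by exact permutation in Python 3.11.15. Symbols were matched for 55141 IDs, Hjv and Fdx2 under older symbols. Same-numbered libraries did not deviate together (correlations -0.0173 to 0.0194), so numbers were not taken as pairs. The fit was also run on simulated data, whose outcome is not given here and which cannot tell whether the libraries are independent mice. The 10 genes, the lists, the alternatives and the naming rule were chosen with earlier results of these data known. That rule took, from each list, up to 2 called genes per direction in each comparison, by p, at 5 CPM or more in a group. Some genes that it takes are left out of this text.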

Additional observations from a re-analysis of the deposited data

How the results depend on the processing

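The 17 planned settings (DESeq2 1.42.0 and limma-voom, other scalings and filters, a replicate block, the 2 groups alone, each library left out) and 3 scalings chosen after seeing the data were run. No total of called genes moved by over 1.5 times, but its split by direction did on length-normalised totals. With the replicate block it was 10847 for 5-FU+Saline against Control, 6193 for 5-FU+FMT against 5-FU+Saline and 7717 for 5-FU+FMT against Control, and it changed no call of the 10 genes; with single libraries left out it was 10298 to 11054, 5301 to 6199 and 6912 to 7724 in that order. Of 600 values for the 10 genes, 535 kept direction and side of the threshold, 31 lost a call, 17 gained one and 17 changed sign. On length-normalised totals over all genes, 5-FU+Saline against Control gave 0.12 for Tfrc, 0.0735 for Fth1, 0.0161 for Ftl1, 0.14 for Slc40a1, 0.10 for Slc11a2 and 0.12 for Ncoa4. On that scale 5-FU+FMT against 5-FU+Saline gave -0.12 for Tfrc, -0.0730 for Fth1 and -0.0167 for Ftl1, and 5-FU+FMT against Control gave 0.000569 for Fth1, 0.14 for Slc11a2 and 0.17 for Ncoa4. This scaling moves all genes together, as the medians above show. The other sign changes were of uncalled differences. Steap3 gave -0.0135 in 5-FU+FMT against Control with upper-quartile factors, and -0.136 to 0.0340 against 5-FU+Saline with single libraries left out. In 5-FU+FMT against 5-FU+Saline, Tfrc gave -0.00368 with DESeq2, and Aco1 gave -0.0560 to 0.0273 with single libraries left out and 0.0176 scaled over protein-coding genes. Upper-quartile factors split the calls of 5-FU+FMT against Control into 3315 higher and 4559 lower (4151 and 3584 with TMM), and Ireb2 was no longer called there (adjusted p = 0.0790). Length-normalised totals over all genes split the calls into 9443 higher and 2377 lower, 1626 and 5983, and 8483 and 1208 for the 3 comparisons, and those over protein-coding genes gave 3582 and 2471 in 5-FU+FMT against 5-FU+Saline.
With single libraries left out, the log2 difference in summed ferritin over Tfrc was -0.10 to -0.06, 0.07 to 0.11 and -0.01 to 0.02 for the 3 comparisons. For Fth1 to Ftl1 it was 0.04 to 0.07, -0.08 to -0.04 and -0.02 to 0.02, and for Aco1 to Ireb2 -0.23 to -0.05, -0.02 to 0.08 and -0.21 to -0.03. Depth limits Hmox1 most in Control, where a library held as few as 43 counts of it.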
